A study of Mus musculus with 10 samples.

Results

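The osteoclast genes of the mouse cochlea were analysed as a group of 10 genes, namely Ctsk, Acp5, Mmp9, Calcr, Oscar, Atp6v0d2, Dcstamp, Ocstamp, Tnfrsf11a and Nfatc1. They were chosen by name as genes that mark osteoclasts or that osteoclasts need, with earlier results of these data known. They are 10 of the 54532 genes in the count files. RNA-seq was performed on cochlear tissue of mtKeima mice aged 12 months. This strain carries a fluorescent protein in its mitochondria whose color depends on pH. The 5 NR-treated mice received 7 mg/ml (24 mM) nicotinamide riboside (NR), a precursor of NAD+, with their water for 10 months from the age of 2 months. The 5 non-treated mice, labelled Veh, were of the same strain and age and drank regular water, and each mouse gave 1 library. The labels give the sex of all 10 mice as female, whereas the methods of the study describe male mice for the RNA work. The methods mention breaking the cochlear bone on the way to RNA but do not say how much of it was kept. The cochlear gene Coch averaged 2609 CPM (the read count scaled to the size of its library) in NR-treated and 2977 CPM in non-treated mice.

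Osteoclasts are large cells with several nuclei that form when precursors of the monocyte and macrophage lineage fuse, and they dissolve bone. RANKL, a ligand made by bone-forming and stromal cells, binds the receptor RANK (the product of Tnfrsf11a) on the precursors and switches on the transcription factor NFATc1, which drives genes for fusion (Dcstamp, Ocstamp), for acid secretion (Atp6v0d2) and for the digestion of bone matrix (Ctsk, Acp5, Mmp9). Osteoprotegerin is a soluble decoy that captures RANKL, and the bony capsule around the cochlea is known for slow remodelling and for osteoprotegerin made by the soft tissue inside it.

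Promoter sequences are shown for the pair of members whose difference between the groups was largest against its error, Oscar and Ctsk. The table of RefSeq promoters (GRCm38.p6) matched 5 of the 10 members, namely Ctsk, Acp5, Calcr, Oscar and Tnfrsf11a. Each line below holds the 250 bases before the start site, 5′ to 3′ on the strand of the gene, at chr7:3616158-3616407 on the minus strand for Oscar and at chr3:95498960-95499209 on the plus strand for Ctsk. Capitals mark matches on either strand of GGAAA, the core of NFAT sites, and of GAGGAA, the core of PU.1 sites.
Oscar: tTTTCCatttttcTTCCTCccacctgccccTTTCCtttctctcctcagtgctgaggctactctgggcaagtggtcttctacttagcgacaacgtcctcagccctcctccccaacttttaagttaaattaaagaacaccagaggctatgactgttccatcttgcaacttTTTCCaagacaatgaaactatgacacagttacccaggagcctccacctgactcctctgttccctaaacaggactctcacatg
Ctsk: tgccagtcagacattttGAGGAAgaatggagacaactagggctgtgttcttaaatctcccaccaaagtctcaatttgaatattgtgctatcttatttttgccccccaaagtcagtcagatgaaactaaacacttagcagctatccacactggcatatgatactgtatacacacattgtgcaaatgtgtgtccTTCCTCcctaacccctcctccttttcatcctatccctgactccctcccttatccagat

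The Oscar sequence holds 3 matches of GGAAA and 1 of GAGGAA, and the Ctsk sequence holds 0 and 2. When the 50 bases after the start were included, Oscar had 4 and 2 matches and Ctsk had 1 and 2. The AP-1 motif TGANTCA was found in 0 of these promoters. Among all 32851 promoters of the same length in the table, 61.3% held GGAAA, 28.3% held GAGGAA and 7.81% held TGANTCA, so the first of these letters are common in any promoter. Each of the 3 start sites of Acp5 had GGAAA within its 300 bases, as did 1 of the 2 start sites of Calcr, and Tnfrsf11a had 0 matches of the 3 motifs.

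All 10 osteoclast genes had reads, and their levels spanned a wide range. Between genes, levels were compared as RPKM, which divides the count by the length of the exons as well as by the library size. In non-treated mice the 3 genes of matrix digestion were the most abundant. Ctsk, which encodes cathepsin K, the main collagenase of the osteoclast, had 31.5 ± 12.5 RPKM (SD, n = 5). Acp5, which encodes tartrate-resistant acid phosphatase, had 28.0 ± 20.4 RPKM (SD, n = 5), and Mmp9, the gene of gelatinase B, had 20.6 ± 9.54 RPKM (SD, n = 5). The ranges of these 3 genes overlapped, so their order was not resolved, but the lowest non-treated value of Mmp9 (10.3 RPKM) lay above the highest value of every other member. Nfatc1 and Atp6v0d2 followed, with 3.30 ± 0.437 and 2.80 ± 1.72 RPKM (SD, n = 5), and then Tnfrsf11a with 1.07 ± 0.303 RPKM (SD, n = 5). Dcstamp had 0.452, Ocstamp 0.163, Oscar 0.131 and Calcr 0.0371 RPKM on average, and the ranges of neighbours in this order overlapped. In NR-treated mice the first places were again taken by Ctsk (60.7 RPKM), Acp5 (60.0 RPKM) and Mmp9 (37.5 RPKM), while Oscar (0.599 RPKM) stood above Ocstamp (0.369 RPKM).

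The groups overlapped for every osteoclast gene. At least 3 of 5 NR-treated mice exceeded all non-treated mice for 5 of 10 members (Ctsk, Mmp9, Oscar, Dcstamp and Tnfrsf11a), and at most 2 did so for the other 5. The share of all tested genes with at least 3 was not computed. At least 4 did so for 3 of 10 members, compared with 3.94% of tested genes. The fitted change was above 0 for 10 of 10 members, compared with 47.1% of all tested genes, and the median log2 fold change of the members was 1.02, compared with -0.01 over all tested genes. An unadjusted p at or below 0.05 was reached by 6 of 10 members, namely Oscar, Ctsk, Dcstamp, Mmp9, Acp5 and Tnfrsf11a (edgeR quasi-likelihood test), where 4.83% of tested genes were higher at that level. None of the 10 was lower (4.88% of tested genes were), and 9.71% of tested genes passed in either direction. Oscar and Calcr had too few reads for the count filter and were read from a second fit, which covered every gene with a read, and in it 4.26% of genes were higher at that level. After Benjamini-Hochberg adjustment over all genes of the fit, 0 of 10 members passed 0.05 in edgeR, as did 0% of all genes. DESeq2 gave 6 members at an unadjusted p of 0.05, where 3.50% of genes were higher, and 1 member at an adjusted p of 0.05, Oscar, where 0.265% of genes were higher. In whole tissue, more cells of a type and more RNA per cell cannot be told apart. The members do not vary independently of each other, since their levels were correlated across mice, so the counts do not stand for 10 separate observations. The members were also chosen with earlier results of these data known, so the shares of all genes are given for orientation and do not test the group.

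Some libraries stood apart. Skeletal muscle markers summed to 788 CPM in NR replicate 3 and 587 CPM in NR replicate 5, and to between 5.61 and 67.0 CPM in the other 8 mice. Without these 2 libraries, the number of members at an unadjusted p of 0.05 was 2 of 10, Oscar and Ctsk, and the fitted change was still above 0 for 10 of 10. The count also depended on other single libraries. It was 2 of 10 without NR replicate 1, without NR replicate 5 or without Veh replicate 5, and 3 of 10 without Veh replicate 3 or Veh replicate 4. It was 8 of 10 without Veh replicate 1, the non-treated mouse with the highest value for 8 of 10 members (this mouse was the highest non-treated one for 24.9% of all tested genes). NR replicate 2 was the lowest NR-treated mouse for 10 of 10 members, and for 26.2% of all tested genes. The number of all tested genes higher at an unadjusted p of 0.05 moved as well. It was 886 in the main fit and 460 without NR replicates 3 and 5. It was 775 without NR replicate 1, 782 without NR replicate 5 and 913 without Veh replicate 5. Without Veh replicates 3, 4 and 1, each left out singly, it was 806, 794 and 1223.

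**Figure D1:**
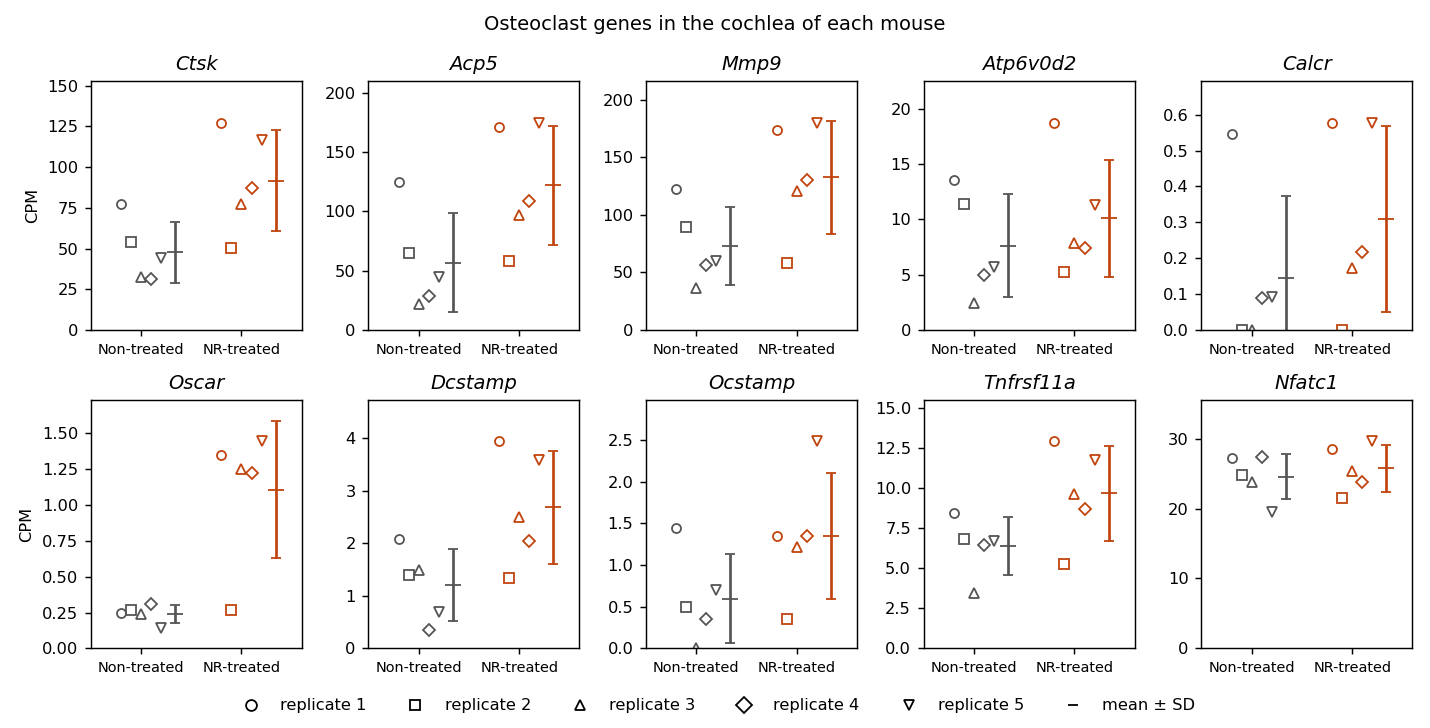
Levels of the 10 osteoclast genes in CPM (linear axes from 0) in each of 5 non-treated (gray) and 5 NR-treated (orange) mice, with the marker shape giving the replicate and bars giving mean ± SD. NR replicate 2 lies within the range of the non-treated mice in all 10 panels (at its lower end, 0, for Calcr). At least 3 NR-treated mice lie above all non-treated ones in 5 panels (Ctsk, Mmp9, Oscar, Dcstamp, Tnfrsf11a) and at most 2 in the other 5. The share of all tested genes with at least 3 was not computed.

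Ctsk (ENSMUSG00000028111, chr3:95499256-95509362, plus strand, mm10) had 127, 50.0, 77.3, 87.3 and 117 CPM in NR replicates 1 to 5 and 77.0, 54.0, 32.3, 31.1 and 44.0 CPM in Veh replicates 1 to 5. The highest values were in NR replicates 1 and 5, and 4 of 5 NR-treated mice exceeded every non-treated mouse, although NR replicate 3 exceeded Veh replicate 1 only narrowly. The log2 fold change was 0.94 (standard error, SE, 0.29; 95% interval 0.30 to 1.59), with an adjusted p of 0.423 in edgeR (0.00815 unadjusted). An exact two-sided permutation test of log2 CPM over all labelings of the 10 mice gave p = 0.0317, where the smallest p possible is 0.00794. The unadjusted p of Ctsk was at or below 0.05 in each of the 17 alternative settings tried (other scalings, filters and tests, and libraries left out), and its log2 fold change lay between 0.81 and 1.19 when any 1 library was left out.

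Acp5 (ENSMUSG00000001348, chr9:22126727-22135711, minus strand, mm10) had 171, 57.9, 97.1, 109 and 175 CPM in NR replicates 1 to 5. In Veh replicates 1 to 5 it had 125, 64.4, 21.6, 28.4 and 44.9 CPM. The non-treated values thus ran from 21.6 to 125 CPM, and only NR replicates 1 and 5 lay above all of them. Its log2 fold change was 1.10 (SE 0.46, adjusted p = 0.488 in edgeR), and the exact permutation test gave p = 0.0556. A gene on the opposite strand, 6530413G14Rik, shares 137 of the 2030 exonic bases of Acp5, but it had only 16 reads in all 10 libraries together.

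Mmp9 (ENSMUSG00000017737, chr2:164940780-164955850, plus strand, mm10) had 174, 57.9, 121, 131 and 180 CPM in NR replicates 1 to 5 and 123, 89.1, 36.5, 56.1 and 59.8 CPM in Veh replicates 1 to 5. NR replicates 1, 4 and 5 lay above every non-treated mouse, and Veh replicate 1 exceeded NR replicates 2 and 3. For Mmp9 the log2 fold change was 0.86 (SE 0.35, adjusted p = 0.476 in edgeR; exact permutation test, p = 0.0794). Mmp9 is also made by neutrophils, and its levels are set beside neutrophil markers below. The unadjusted p of Acp5 and of Mmp9 was at or below 0.05 in 11 of the 17 alternative settings each, and for both genes it was above 0.05 without NR replicate 1 or 5 or Veh replicate 3, 4 or 5.

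Oscar (ENSMUSG00000054594, chr7:3609813-3616157, minus strand, mm10) encodes a receptor for collagen that gives osteoclast precursors a second signal beside RANK. It had 28, 6, 29, 28 and 25 reads in NR replicates 1 to 5 and 5, 6, 6, 7 and 3 reads in Veh replicates 1 to 5. This is 1.35, 0.268, 1.25, 1.22 and 1.45 CPM in the NR-treated mice, and 0.139 to 0.308 CPM in the non-treated mice. Thus 4 of 5 NR-treated mice far exceeded every non-treated mouse, and NR replicate 2 lay among the non-treated mice. The log2 fold change of 2.17 (SE 0.43, 95% interval 1.26 to 3.09) was the largest of the members, a 4.51-fold difference, with an adjusted p of 0.324 in edgeR (1.75e-04 unadjusted). The DESeq2 Wald test gave an adjusted p of 0.00588, and edgeR without NR replicate 2 gave 0.0288, while over all settings the adjusted p ran from 0.00588 to 0.802. The edgeR value of 0.0288 leaves out the only NR-treated mouse that lay among the non-treated mice. In that fit Oscar passed the count filter through its reads in the other 4 NR-treated mice, so this value adds no support of its own. The exact permutation test gave p = 0.0238. The value rests on few reads, 116 in all NR-treated and 27 in all non-treated libraries.

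Calcr (ENSMUSG00000023964, chr6:3685680-3764714, minus strand, mm10) encodes the calcitonin receptor, through which calcitonin stops the resorption of bone. It had 12, 0, 4, 5 and 10 reads in NR replicates 1 to 5 and 11, 0, 0, 2 and 2 reads in Veh replicates 1 to 5. The highest counts were in NR replicates 1 and 5 and in Veh replicate 1, so the groups overlapped over their whole range. The log2 fold change was 1.10 (SE 0.96, 95% interval -0.96 to 3.16, adjusted p = 0.650 in edgeR), so its interval spanned values from lower to much higher in NR-treated mice. Without Veh replicate 1 the log2 fold change was 2.63 (unadjusted p = 0.0217 in edgeR), so this library decided both the size and the call.

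**Figure D2:**
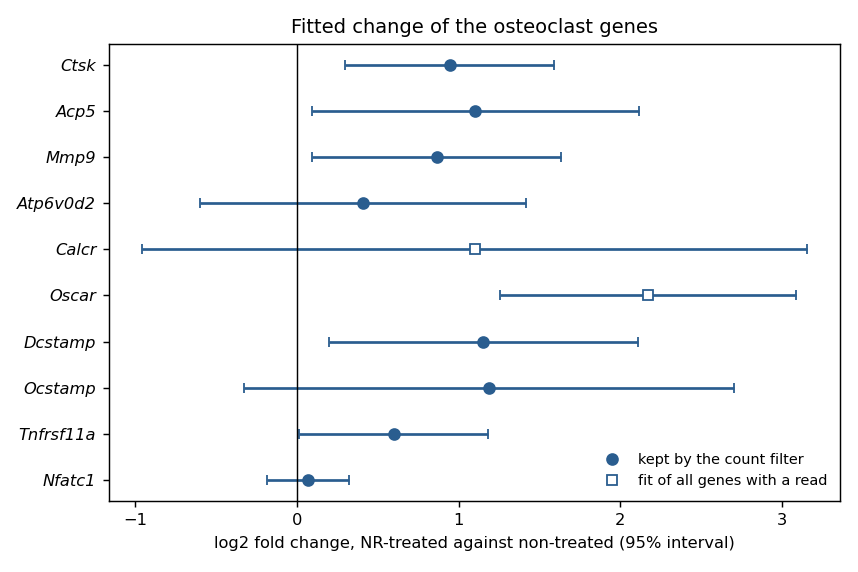
Log2 fold change of the 10 osteoclast genes, NR-treated against non-treated, with 95% intervals from the edgeR fit (filled circles, 8 genes kept by the count filter; open squares, Oscar and Calcr from the fit of all genes with a read). All 10 points lie above 0, the intervals of Atp6v0d2, Calcr, Ocstamp and Nfatc1 include 0, and Oscar has the largest value at 2.17.

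Among the genes of cell fusion, Dcstamp (ENSMUSG00000022303, chr15:39745930-39760938, plus strand, mm10) encodes a transmembrane protein without which precursors do not fuse. It had 3.95, 1.34, 2.51, 2.05 and 3.58 CPM in NR replicates 1 to 5 and 2.08, 1.39, 1.495, 0.352 and 0.696 CPM in Veh replicates 1 to 5. NR replicates 1, 3 and 5 lay above every non-treated mouse. The log2 fold change was 1.15 (SE 0.43, adjusted p = 0.472 in edgeR; exact permutation test, p = 0.0556). Its unadjusted p was above 0.05 without NR replicate 1, NR replicate 5 or Veh replicate 5. Ocstamp (ENSMUSG00000027670, chr2:165393760-165400405, minus strand, mm10), a related fusion gene, had 28, 8, 28, 31 and 43 reads in NR replicates 1 to 5. In Veh replicates 1 to 5 it had 29, 11, 0, 8 and 15 reads. Only NR replicate 5, at 2.49 CPM, lay above every non-treated mouse, and its log2 fold change of 1.19 (SE 0.69, 95% interval -0.33 to 2.70) had an adjusted p of 0.600 in edgeR. Without Veh replicate 1 the log2 fold change of Ocstamp was 1.81 (unadjusted p = 0.0264 in edgeR). Atp6v0d2 (ENSMUSG00000028238, chr4:19876841-19922605, minus strand, mm10) encodes a subunit of the proton pump that also takes part in fusion. Its levels were 18.8, 5.27, 7.87, 7.37 and 11.3 CPM in NR replicates 1 to 5 and 13.6, 11.4, 2.47, 4.93 and 5.71 CPM in Veh replicates 1 to 5. Veh replicates 1 and 2 were higher than NR replicates 2, 3, 4 and 5, and the log2 fold change of 0.41 (SE 0.46, 95% interval -0.60 to 1.42) had an adjusted p of 0.777 in edgeR.

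Upstream of these genes, Tnfrsf11a (ENSMUSG00000026321, chr1:105780718-105847981, plus strand, mm10), which encodes RANK, had 12.9, 5.27, 9.64, 8.72 and 11.8 CPM in NR replicates 1 to 5. In Veh replicates 1 to 5 it had 8.48, 6.81, 3.48, 6.47 and 6.73 CPM. Here 4 of 5 NR-treated mice exceeded every non-treated mouse, and NR replicate 2 lay below all of them except Veh replicate 3. For RANK the log2 fold change was 0.60 (SE 0.27, 95% interval 0.01 to 1.18, adjusted p = 0.505 in edgeR; exact permutation test, p = 0.0873). Its unadjusted p of 0.0458 was at or below 0.05 in 8 of the 17 alternative settings, and when 1 library was left out it stayed there only without NR replicate 2 or Veh replicate 1.

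Nfatc1 (ENSMUSG00000033016, chr18:80606205-80713071, minus strand, mm10) varied little between mice. It had 28.4, 21.5, 25.4, 23.8 and 29.7 CPM in NR replicates 1 to 5 and 27.3, 24.8, 23.8, 27.4 and 19.4 CPM in Veh replicates 1 to 5. The groups overlapped almost fully, and the log2 fold change was 0.07 (SE 0.11, 95% interval -0.18 to 0.32, adjusted p = 0.856 in edgeR). NFATc1 is also made by lymphocytes, endothelial cells and other cells, and its level in whole tissue is not specific to osteoclasts. At least 4 of 5 NR-treated mice exceeded every non-treated mouse for 3 of 10 members, Ctsk, Oscar and Tnfrsf11a, compared with 3.94% of tested genes. All 5 did so for 0 of 10 members, compared with 0.775% of tested genes.

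It was then asked whether the osteoclast genes varied together from mouse to mouse. Over the 10 mice, log2 CPM of Ctsk correlated with that of Acp5 (Pearson's r = 0.98, permutation p = 4e-05, adjusted p = 1.8e-04; Spearman's rho = 0.94, permutation p = 2.8e-04) and with that of Mmp9 (r = 0.96, permutation p = 1e-05, the smallest that 100000 resamples can give, adjusted p = 9e-05; rho = 0.95, permutation p = 1.4e-04). Tnfrsf11a had r = 0.89 (permutation p = 5.2e-04; rho = 0.93, permutation p = 3.6e-04) and Dcstamp r = 0.87 (permutation p = 9.5e-04; rho = 0.89, permutation p = 0.00134). Ocstamp had r = 0.85 (permutation p = 6.3e-04; rho = 0.83, permutation p = 0.00464) and Atp6v0d2 r = 0.83 (permutation p = 0.00329; rho = 0.78, permutation p = 0.0103). For these 6 genes, the adjusted p over the 9 relations computed was at most 0.00494. Without Veh replicates 3 and 4, the mice farthest from the median of Ctsk, r lay between 0.71 for Atp6v0d2 and 0.98 for Acp5. The correlations were not only those of the groups, since with each value taken as the deviation from its group mean r was 0.97 for Acp5, 0.95 for Mmp9 and 0.77 for Dcstamp. Nfatc1 followed Ctsk less closely (r = 0.51, permutation p = 0.137; rho = 0.45, permutation p = 0.191), with r = 0.87 without Veh replicates 3 and 4. Calcr had too few reads, so its correlation with Ctsk is not given. For Oscar the mice fell into 2 separate clusters, 4 NR-treated mice at 1.22 CPM or more and the other 6 mice at 0.308 CPM or less. Its correlation with Ctsk is therefore not given either.

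**Figure D3:**
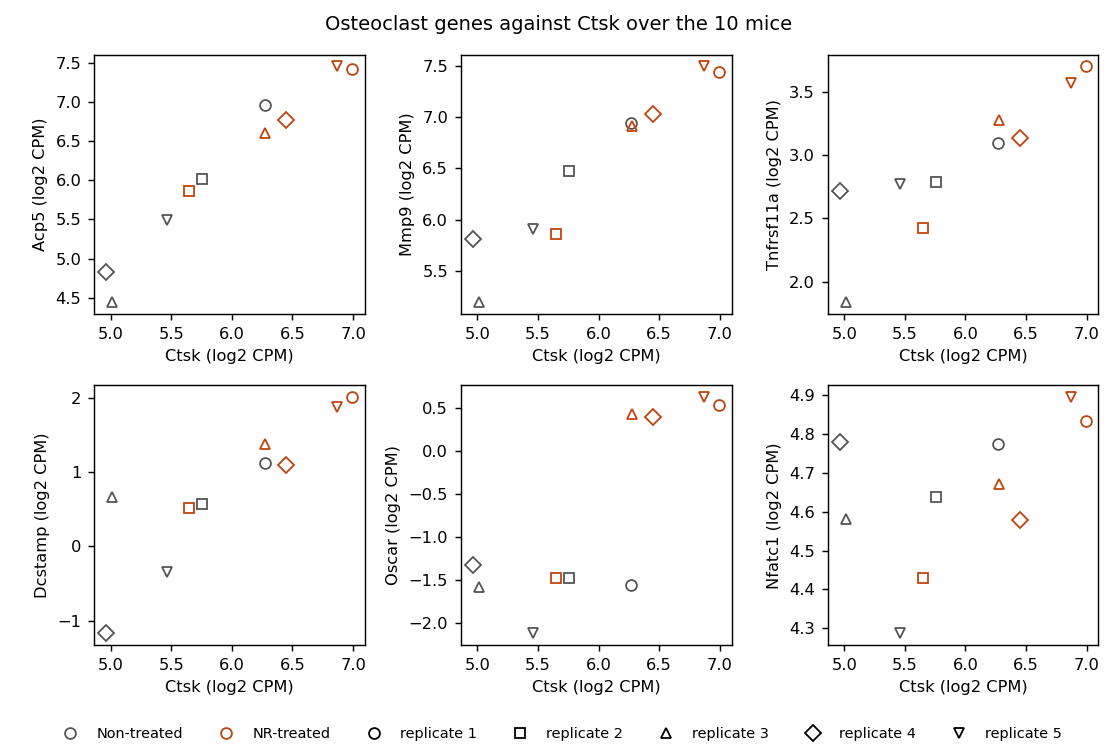
Log2 CPM of 6 osteoclast genes against log2 CPM of Ctsk in the 10 mice (gray, non-treated; orange, NR-treated; marker shape, replicate). Acp5 and Mmp9 lie close to a line (r = 0.98 and 0.96), Nfatc1 is scattered (r = 0.51), and Oscar falls into a group of 4 NR-treated mice and a group of 6 others at all levels of Ctsk up to that of Veh replicate 1.

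The genes whose pattern over the 10 mice was most like that of Ctsk, among all tested genes outside the group, were Mmp13 (r = 0.98), which encodes a collagenase of bone and cartilage, Col22a1 (0.98), Tie1 (0.97), Itgad (0.97) and Sprn (0.96). Their log2 fold changes were 1.00, 1.16, 0.27, 0.88 and 0.60. In all, 55 tested genes had r above 0.9 with Ctsk. The genes most like Mmp9 were Tie1 (0.98), Retnlg (0.97), Orai2 (0.97), Adam19 (0.96) and Mmp8 (0.95), and 76 genes had r above 0.9. Of these, Retnlg and Mmp8 are genes of neutrophils. These values were picked as the highest of all genes and describe the pattern only.

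Markers of other cells of bone and marrow moved with the osteoclast genes to different degrees. Of 10 osteoblast and osteocyte markers, Col1a1, the main collagen of bone, was higher at an unadjusted p of 0.05, with 817 ± 478 CPM in NR-treated and 244 ± 141 CPM in non-treated mice (SD, n = 5; log2 fold change 1.74, adjusted p = 0.408 in edgeR), and the other 9 were not. The list had a median of 0.08 on the log2 scale, and 6 of 10 were above 0. Its summed level was 1988, 526, 745, 1110 and 1413 CPM in NR replicates 1 to 5 and 337 to 850 CPM in the non-treated mice. Col1a1 alone gave 1530, 297, 487, 793 and 980 CPM of these sums in NR replicates 1 to 5. In the non-treated mice it gave 102 to 470 CPM, so the difference in the sums rests largely on this 1 gene. Of 10 macrophage markers, 0 were higher at an unadjusted p of 0.05, 10 were above 0 with a median of 0.18, and they summed to 192 to 554 CPM in NR-treated and 251 to 367 CPM in non-treated mice, with C1qa the most abundant. Of 10 neutrophil and marrow myeloid markers, led by S100a9, 1 (Retnlg, log2 fold change 0.75) was higher at that level and 9 were above 0, with a median of 0.43. Their sums were 1512 to 5100 CPM and 1513 to 5950 CPM. The lowest sums of the neutrophil list were in NR replicate 2 and Veh replicate 3, which were also low in most osteoclast genes. None of the markers in these 3 lists was at 0 in any mouse.

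Each member was also correlated with the mean log2 CPM of these 3 lists over the 10 mice, which gave 30 relations, and 10 of them had an adjusted p of Pearson's r at or below 0.05. The neutrophil list accounted for 6 of the 10. Its relations were with Mmp9 (r = 0.87, permutation p = 0.00136, adjusted p = 0.0204, rho = 0.77, permutation p = 0.0126), Tnfrsf11a (r = 0.86, permutation p = 6.5e-04, adjusted p = 0.0195, rho = 0.84, permutation p = 0.00364), Ocstamp (r = 0.81, permutation p = 0.00404, adjusted p = 0.0303, rho = 0.64, permutation p = 0.0547), Atp6v0d2 (r = 0.79, permutation p = 0.00491, adjusted p = 0.0303, rho = 0.67, permutation p = 0.0389), Acp5 (r = 0.76, permutation p = 0.0114, adjusted p = 0.0430, rho = 0.67, permutation p = 0.0387) and Ctsk (r = 0.75, permutation p = 0.0129, adjusted p = 0.0430, rho = 0.79, permutation p = 0.00877). The osteoblast list accounted for the other 4. These were with Ctsk (r = 0.81, permutation p = 0.00647, adjusted p = 0.0324, rho = 0.78, permutation p = 0.0109), Dcstamp (r = 0.80, permutation p = 0.00505, adjusted p = 0.0303, rho = 0.78, permutation p = 0.0108), Acp5 (r = 0.76, permutation p = 0.0124, adjusted p = 0.0430, rho = 0.79, permutation p = 0.00892) and Mmp9 (r = 0.75, permutation p = 0.0158, adjusted p = 0.0474, rho = 0.81, permutation p = 0.0074). By Pearson's r, Ctsk, Acp5 and Mmp9 were thus related to both lists. By the adjusted p of Spearman's rho, relations at or below 0.05 were spread differently over the lists. With the neutrophil list they were those of Ctsk, Mmp9 and Tnfrsf11a, and with the osteoblast list those of Ctsk, Acp5, Mmp9, Dcstamp and Atp6v0d2. With the macrophage list they were those of Oscar and Tnfrsf11a (adjusted p from 0.042 to 0.046 over all of these). Without the 2 mice farthest from the median of the list, r was 0.62 to 0.83 for the 6 neutrophil relations (without NR replicate 2 and Veh replicate 3) and 0.52 to 0.63 for the 4 osteoblast relations (without NR replicates 1 and 5). The macrophage list had 0 relations at or below an adjusted p of 0.05 for Pearson's r. With it Ctsk had r = 0.57 (permutation p = 0.0830, adjusted p = 0.119, rho = 0.61, permutation p = 0.0666). Tnfrsf11a had r = 0.68 (permutation p = 0.0370, adjusted p = 0.0771) and rho = 0.79 (permutation p = 0.00893, adjusted p = 0.0420) with it. Oscar had r = 0.58 (permutation p = 0.0562, adjusted p = 0.0887) and rho = 0.77 (permutation p = 0.0126, adjusted p = 0.0420). The values of Oscar fell into separate clusters of mice, as described above for Ctsk, so its relations to the lists do not show a graded change. The part of bone, marrow or neutrophil content in the levels of the osteoclast genes was not tested.

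Markers of other tissues were also compared. All 6 skeletal muscle markers were above 0 (median log2 fold change 4.23), and 5 of them, among them Acta1 (the most abundant), Ckm and Ttn, were higher at an unadjusted p of 0.05. Of 5 tested adipocyte markers, 4 were higher at that level, among them Plin1, Cidec and Pck1, and Fabp4 was the most abundant of the list. NR replicate 2, which was low in osteoclast genes, had the highest sum of adipocyte markers (206 CPM, against 54.6 to 106 CPM in the other NR-treated mice). Erythroid markers, led by Slc4a1, had 0 of 6 above 0 and 0 past that level. Of 8 cochlear markers, 0 were above 0 and 4 were lower at an unadjusted p of 0.05, namely Otos, Otog, Tecta and Kcne1, and the median log2 fold change was -0.68. Their sum was highest in Veh replicates 3 and 4 (6316 and 5569 CPM, against 3186 to 4843 CPM in the other 8 mice), which were the lowest mice for Ctsk and Acp5. The part of tissue content in the levels of the osteoclast genes was not tested.

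**Figure D4:**
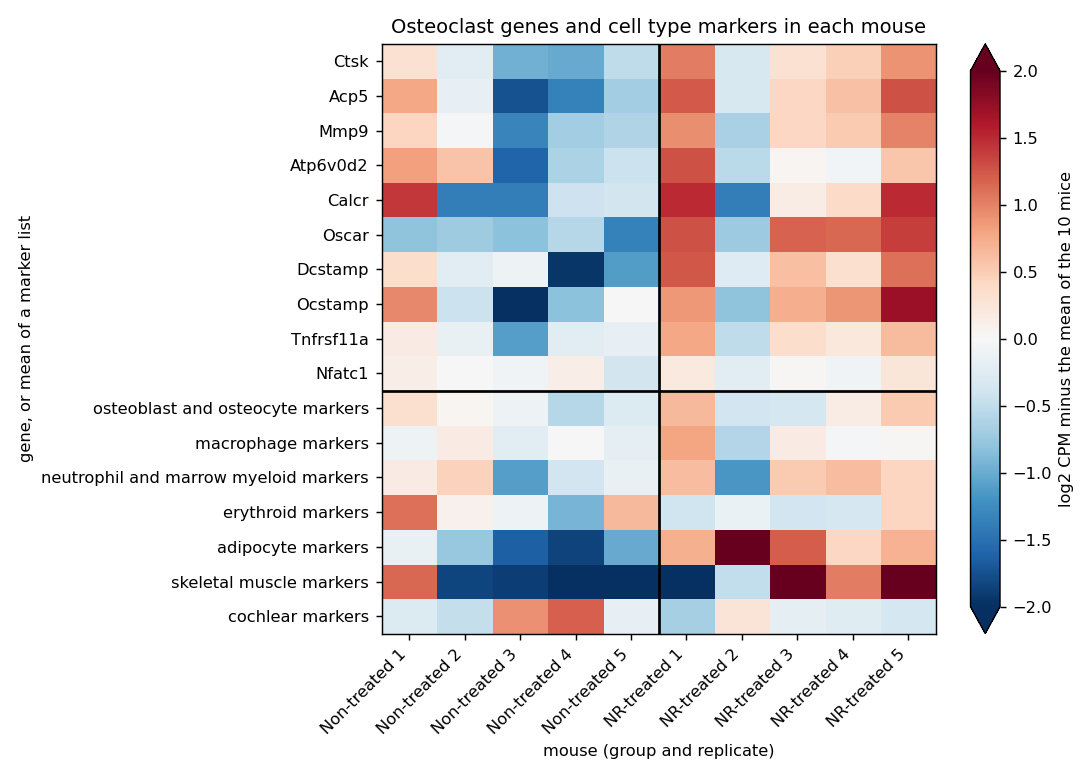
Heat map of log2 CPM minus the mean of the 10 mice (color bar, capped at 2 in either direction) for the 10 osteoclast genes and for the mean of 7 marker lists, with non-treated mice on the left and NR-treated mice on the right. Most osteoclast genes are high (red) in NR replicates 1 and 5 and in Veh replicate 1 and low (blue) in Veh replicates 3 and 4, where the cochlear markers are high, while muscle markers are highest in NR replicates 3 and 5.

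The other genes of the pathway were described from 3 lists. The machinery of resorption comprises the proton pump, the chloride channel, carbonic anhydrase and the adhesion and trafficking proteins of the ruffled border. At an unadjusted p of 0.05, 2 of its 14 genes were higher, 2 were lower and 0 passed an adjusted p of 0.05, and the median log2 fold change was -0.02, close to that of all tested genes. The higher genes were Slc37a2, a sugar phosphate transporter (log2 fold change 0.61, SE 0.23), and Snx10, a sorting nexin needed for the ruffled border (0.37, SE 0.12). Snx10 had 38.1 to 53.2 CPM in NR-treated and 27.3 to 43.8 CPM in non-treated mice, and the groups overlapped. The lower genes were Car2, the carbonic anhydrase that supplies protons (log2 fold change -0.45, SE 0.13, adjusted p = 0.423 in edgeR; exact permutation test, p = 0.0159), and Itgav, an integrin subunit (-0.23, SE 0.10). Car2 had 547, 837, 703, 684 and 693 CPM in NR replicates 1 to 5 and 1139, 946, 949, 716 and 979 CPM in Veh replicates 1 to 5, and only NR replicate 2 and Veh replicate 4 broke the separation of the groups. The most abundant genes of the list per length were Ckb (632 RPKM in NR-treated and 611 RPKM in non-treated mice) and Car2 (286 and 391 RPKM), both of which many cells of the cochlea express. Tcirg1, the subunit of the proton pump most typical of osteoclasts, had a log2 fold change of 0.12 (SE 0.13), and Itgb3, the integrin of the osteoclast's attachment ring, had -0.09 (SE 0.44).

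Of the 11 signals and receptors of osteoclast formation, 1 was higher and 1 lower at an unadjusted p of 0.05, 0 passed an adjusted p of 0.05, and 8 were above 0, and the median log2 fold change was 0.23. Csf1, the growth factor of the lineage, was higher by 0.27 on the log2 scale (SE 0.12, adjusted p = 0.494 in edgeR). Tnfrsf11b (ENSMUSG00000063727), which encodes osteoprotegerin, had 37.8, 87.8, 54.5, 40.6 and 44.3 CPM in NR replicates 1 to 5 and 68.4, 66.9, 130, 116 and 60.5 CPM in Veh replicates 1 to 5. All NR-treated mice except NR replicate 2 lay below every non-treated mouse, with a log2 fold change of -0.74 (SE 0.28, adjusted p = 0.475 in edgeR; exact permutation test, p = 0.0556). Tnfsf11, which encodes RANKL, was low in every mouse, at 0.88 to 1.93 CPM, and its log2 fold change of 0.23 (SE 0.27, 95% interval -0.35 to 0.81) did not pass the test. The ratio of Tnfrsf11b to Tnfsf11, both per length, was 15.6, 77.9, 34.5, 28.4 and 21.7 in NR replicates 1 to 5 and 43.8, 31.2, 94.4, 104.5 and 54.5 in Veh replicates 1 to 5, so that it was highest in Veh replicates 3 and 4 and, among NR-treated mice, in NR replicate 2, the same mice in which Acp5 was lowest within its group. Veh replicates 3 and 4 and NR replicate 2 also had the highest sums of cochlear markers in their groups (6316, 5569 and 4843 CPM). The ratio rests on 19 to 40 reads of Tnfsf11 per library, and the part of tissue content in it was not tested. Among the signals and receptors, the most abundant genes per length were Tyrobp (75.7 and 58.9 RPKM) and Fcer1g (30.8 and 25.0 RPKM), or, in non-treated mice, Tnfrsf11b (31.3 RPKM). Tyrobp and Fcer1g encode adaptors of the receptors on myeloid cells, Fcer1g being the partner of Oscar, and had log2 fold changes of 0.36 and 0.30 (SE 0.25 and 0.24).

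Of the 13 transcription factors and brakes of the osteoclast, 0 were higher and 1 was lower at an unadjusted p of 0.05, 0 passed an adjusted p of 0.05, and 7 were above 0, and the median log2 fold change was 0.01. The lower gene was Mitf, a factor of osteoclasts that is also central to pigment cells, with 39.3 to 50.7 CPM in NR-treated and 46.8 to 82.5 CPM in non-treated mice. Its log2 fold change was -0.63 (SE 0.14, adjusted p = 0.370 in edgeR and 0.0144 in DESeq2; exact permutation test, p = 0.0159), and only NR replicate 2 and Veh replicate 1 overlapped. Spi1, which encodes PU.1, had a log2 fold change of 0.50 (SE 0.28) and did not pass the test. The most abundant factors per length were Rela (27.6 and 29.5 RPKM) and Jun (21.6 and 23.7 RPKM), with log2 fold changes of -0.09 and -0.13.

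**Figure D5:**
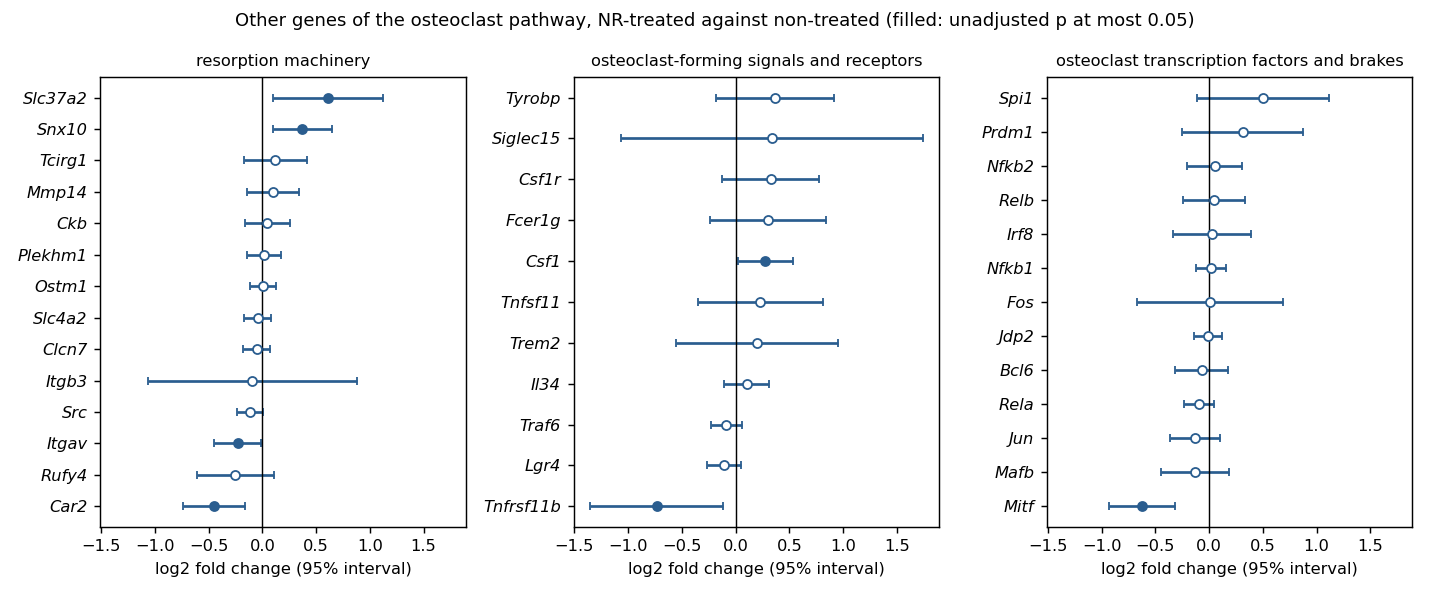
Log2 fold change with 95% interval, NR-treated against non-treated, of 14 genes of the resorption machinery (left), 11 signals and receptors (middle) and 13 transcription factors and brakes (right), with filled points for an unadjusted p of at most 0.05. Most points lie near 0, and Car2, Tnfrsf11b and Mitf are the lowest in their panels, at -0.45, -0.74 and -0.63.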

How the data were processed

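RNA-seq of the cochlea of 10 mtKeima mice (5 NR-treated, 5 non-treated, grouped by their labels) was used. The deposited values are raw read counts per gene with no normalization. The authors aligned poly(A)-selected paired-end reads to mm10 with STAR (version 2.6.1d, 2 mismatches) and counted them with featureCounts (version 1.5.0) in its default mode, which does not use the strand. The gene length column deposited with the counts was used for RPKM. Names and coordinates were those deposited with the counts, and the coordinates of all 10 members equal those of GENCODE release M21. Exon overlaps between genes were taken from that release. Total counts were 17060379 to 24419230 per mouse, and no pair of libraries was a duplicate by a chi-square comparison of counts. Nothing in the sources used here says how cages or extraction days were shared. The p-values set the difference between the groups against the spread between these mice within the groups. They treat the mice as independent, and whether the mice of a group were so is not known.

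Counts were fitted with edgeR (version 4.0.16, R 4.3.3), using TMM, filterByExpr (18329 of the 33224 genes with a read kept), the quasi-likelihood test and no covariate. Of the tested genes, 886 were higher and 894 lower at an unadjusted p of 0.05 (1116 and 664 with upper-quartile scaling), and the common biological coefficient of variation was 0.207. CPM was scaled with TMM, and log2 CPM used a prior count of 2. Exact permutation tests were two-sided, and correlations used 100000 resamples. The code was tested on simulated data. Alternatives were DESeq2 (version 1.42.0), which the study used at version 1.26.0, its size factors, upper-quartile factors, no filter, a robust fit, the replicate number as a block, and leaving out each library. Leaving out NR replicates 3 and 5 together was chosen after seeing the data.

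The 10 members and the pathway and marker lists were chosen with earlier results of these data known. All members were named with values. From each pathway list the genes at an unadjusted p of 0.05 (up to 5) and the 2 with the highest RPKM were named, and from each marker list the most abundant gene and up to 3 genes at that level. Tcirg1, Itgb3, Tnfsf11, Spi1 and Kcne1 were named after their values were seen. The 5 genes most correlated with Ctsk and with Mmp9 were named as well. Promoters of Mmp9, Atp6v0d2, Dcstamp, Ocstamp and Nfatc1 were not used here.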

Additional observations from a re-analysis of the deposited data

Results flagged for a closer look

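Among the 5 samples of a group, a value was picked out when its gap to the nearest other sample took up more of the whole range than the 95% critical value of Dixon's test allows. Of 34 groups tested, 2 were picked out, and chance gives about 1 in 20. Oscar had 0.268 CPM in NR replicate 2, against 1.22 to 1.45 CPM in the other 4 NR-treated mice, with the gap taking up 0.810 of the range. Calcr had 0.545 CPM (11 reads) in Veh replicate 1, against 0 to 0.0928 CPM in the other 4 non-treated mice, with the gap taking up 0.830 of the range.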

How the results depend on the processing

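Of 170 values of single osteoclast genes recomputed in 17 settings, 167 kept their direction and their side of an adjusted p of 0.05. Nfatc1 changed sign without Veh replicate 5, and its log2 fold change ran from -0.0045 to 0.14 when 1 library was left out. Oscar passed an adjusted p of 0.05 in DESeq2 and without NR replicate 2. In the latter fit it passed the count filter only through the NR-treated mice with high counts. The number of members at an unadjusted p of 0.05 was 2 to 8 when 1 library was left out, 2 without NR replicates 3 and 5 and 6 otherwise. At an adjusted p of 0.05 it was 0 to 1 when 1 library was left out and 1 in DESeq2, and members above 0 numbered 9 to 10. Over all tested genes, 669 to 1414 were higher and 484 to 1059 lower at an unadjusted p of 0.05 when 1 library was left out. These numbers were 460 and 383 without NR replicates 3 and 5, and 1414 were higher among all genes with a read. Genes at an adjusted p of 0.05 numbered 0 to 1 when 1 library was left out and 102 in DESeq2. The cause of these differences was not tested. With the replicate number as a block, 6 members had an unadjusted p of 0.05, 0 an adjusted one, and the log2 fold changes of Ctsk, Acp5 and Oscar were 0.96, 1.28 and 2.07. Over all genes 879 were higher and 776 lower. Samples with the same number did not deviate together (r from -0.22 to 0.17), so no pairing by number was seen. Such values cannot tell whether mice with the same number shared a cage or an extraction day. Calcr, Oscar and Ocstamp had 0 to 43 reads per library.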

Other observations

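The summed level of the 10 osteoclast genes was 539, 200, 343, 371 and 533 CPM in NR replicates 1 to 5 and 378, 253, 122, 155 and 182 CPM in Veh replicates 1 to 5. Over the 28 pairs of the 8 members kept by the count filter, Pearson's r across the 10 mice ran from 0.41 to 0.98 with a median of 0.84.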
